A study of Homo sapiens with 8 samples.

Results

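Mediator and transcription coactivator genes were followed in HEK293T, a cell line of human embryonic kidney origin, after transfection with CRISPR activators. The members were chosen by gene symbol, and 52 of the 19770 genes in the files carried a listed symbol. They comprise 32 Mediator genes in 4 modules, 6 acetyltransferases, 3 p160 coactivators, 2 BET readers, 5 genes of P-TEFb and its 7SK inhibitor, and 4 SWI/SNF genes. RNA-seq libraries were made at 72 h post-transfection in 4 groups of 2 libraries each. The control group received dCas9 and MCP-mCherry, where MCP binds MS2 stem-loops in the gRNA and mCherry is a fluorescent protein without an activation domain. CRISPR-DREAM combined dCas9 with MCP-MSN, which joins activation domains of human transcription factors, MRTF-A and NRF2 among them. SAM combined dCas9-VP64 with MCP-p65-HSF1, and dCas9-VPR carried VP64, p65 and Rta fused directly to dCas9. VP64 and Rta are of viral origin. All 4 groups, the control included, received pooled gRNAs against HBG1/HBG2, labelled as MS2-modified in all groups but dCas9-VPR. About 125000 cells were plated. The paired-plasmid groups received 187.5 ng of each effector plasmid, dCas9-VPR 375 ng of 1 plasmid, and every group 125 ng of gRNA plasmid. Delivery was transient and the effectors were overexpressed, so each library is an average over cells that took up different amounts of plasmid. No group without gRNAs or without transfection was analysed here.

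Mediator is the large complex that links activators bound to DNA with RNA polymerase II. Its tail contacts activators, its head and middle contact the polymerase around the MED14 scaffold, and a separable kinase module of CDK8 or CDK19, cyclin C, MED12 and MED13 controls that contact. Acetyltransferases such as EP300 mark chromatin, BET proteins read acetylated histones, and P-TEFb releases paused polymerase unless HEXIM1 and 7SK RNA hold it inactive. Activation domains such as VP64 and p65 work by recruiting these proteins, whose own mRNA levels are what was measured here.

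The values are CPM, the reads of a gene per M reads of its library, and the estimated depth was 28.5 to 35.2 M reads per library. Differences were tested with limma on log2(CPM + 0.5), with all 8 libraries in 1 fit and Benjamini-Hochberg adjustment over the 15122 genes that reached 1 CPM in 2 or more libraries. A called gene had an adjusted p below 0.05, and fold changes are given as log2 values ± their standard error. The sources describe duplicates without saying whether they were separate cultures, so these p-values measure the spread between libraries, which may be technical. A single gene tested by exact permutation, with 2 libraries against 2, could not give a two-sided p below 0.333. Kidney-line markers were present, with VIM at 267 to 440 CPM, KRT18 at 79.7 to 101 CPM and CDH2 at 47.3 to 67.6 CPM over the 8 libraries, although PAX2 at 0.798 to 1.73 CPM and LHX1 at 1.11 to 2.25 CPM were low. KRT8, also of that list, was at 50.2 and 45.2 CPM in control and at 78.5 to 113 CPM in the 6 activator libraries, and its part in the results was not tested. Of the markers of other cell types, PECAM1, DCN and APOA1 did not exceed 1.17 CPM. In bulk RNA, a change in the share of cells of one kind cannot be told apart from a change in RNA per cell.

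No coactivator gene changed more than 2-fold in any of the 6 comparisons among groups, at any p. The largest difference was that of CREBBP with SAM, 0.78 on the log2 scale. The same double threshold of fold change above 2 and adjusted p below 0.05 called 2.55% of all genes tested with CRISPR-DREAM relative to control, 4.34% with SAM and 1.1% with dCas9-VPR. Between activators it called 0.721% for CRISPR-DREAM against SAM, 0.734% for CRISPR-DREAM against dCas9-VPR and 2.31% for SAM against dCas9-VPR. All 52 genes passed the filter on low values, and the median standard error of their log2 changes was 0.088.

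With CRISPR-DREAM, 6 coactivator genes rose and 4 fell relative to control. This is 19.2% of the 52, against 28% of all genes tested (18.8% higher and 9.25% lower). With SAM 22 rose and 3 fell, which is 48.1% against 44.6% of all genes (35.7% higher and 8.89% lower). With dCas9-VPR 4 rose and 6 fell, which is 19.2% against 17.6% of all genes (11% higher and 6.68% lower). Each total share is near or below its background. The members' median log2 change was 0.065 with CRISPR-DREAM, 0.19 with SAM and 0.049 with dCas9-VPR, beside 0.064, 0.16 and 0.061 for all genes tested. The 3 comparisons share the same 2 control libraries.

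The split between rises and falls depended on how libraries were scaled. Scaling by the median of ratios, in place of CPM, moved the median change of all genes with SAM from 0.16 to 0.020. The split of member calls then went from 22 and 3 to 13 and 6 with SAM, from 6 and 4 to 4 and 5 with CRISPR-DREAM, and stayed at 4 and 6 with dCas9-VPR. Over the 15101 genes tested under that scaling, 3151 were higher and 2740 lower with SAM, 2190 and 2000 with CRISPR-DREAM, and 1175 and 1383 with dCas9-VPR. Of the 25 calls with SAM, 16 were shared by both scalings in the same direction, as were 8 of 10 with CRISPR-DREAM and 10 of 10 with dCas9-VPR. Leaving out single libraries also moved the counts. The count with CRISPR-DREAM fell from 10 to 6 without control replicate 2, and the count with dCas9-VPR fell from 10 to 2 without control replicate 2 or dCas9-VPR replicate 1 and to 3 without dCas9-VPR replicate 2. In the same fits the share of all genes called was 14.7% with CRISPR-DREAM, and 3.88%, 3.43% and 4.38% with dCas9-VPR. With every left-out library and every other setting tried, 4 of the 10 calls with CRISPR-DREAM, 14 of 25 with SAM and 2 of 10 with dCas9-VPR held.

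**Figure D1:**
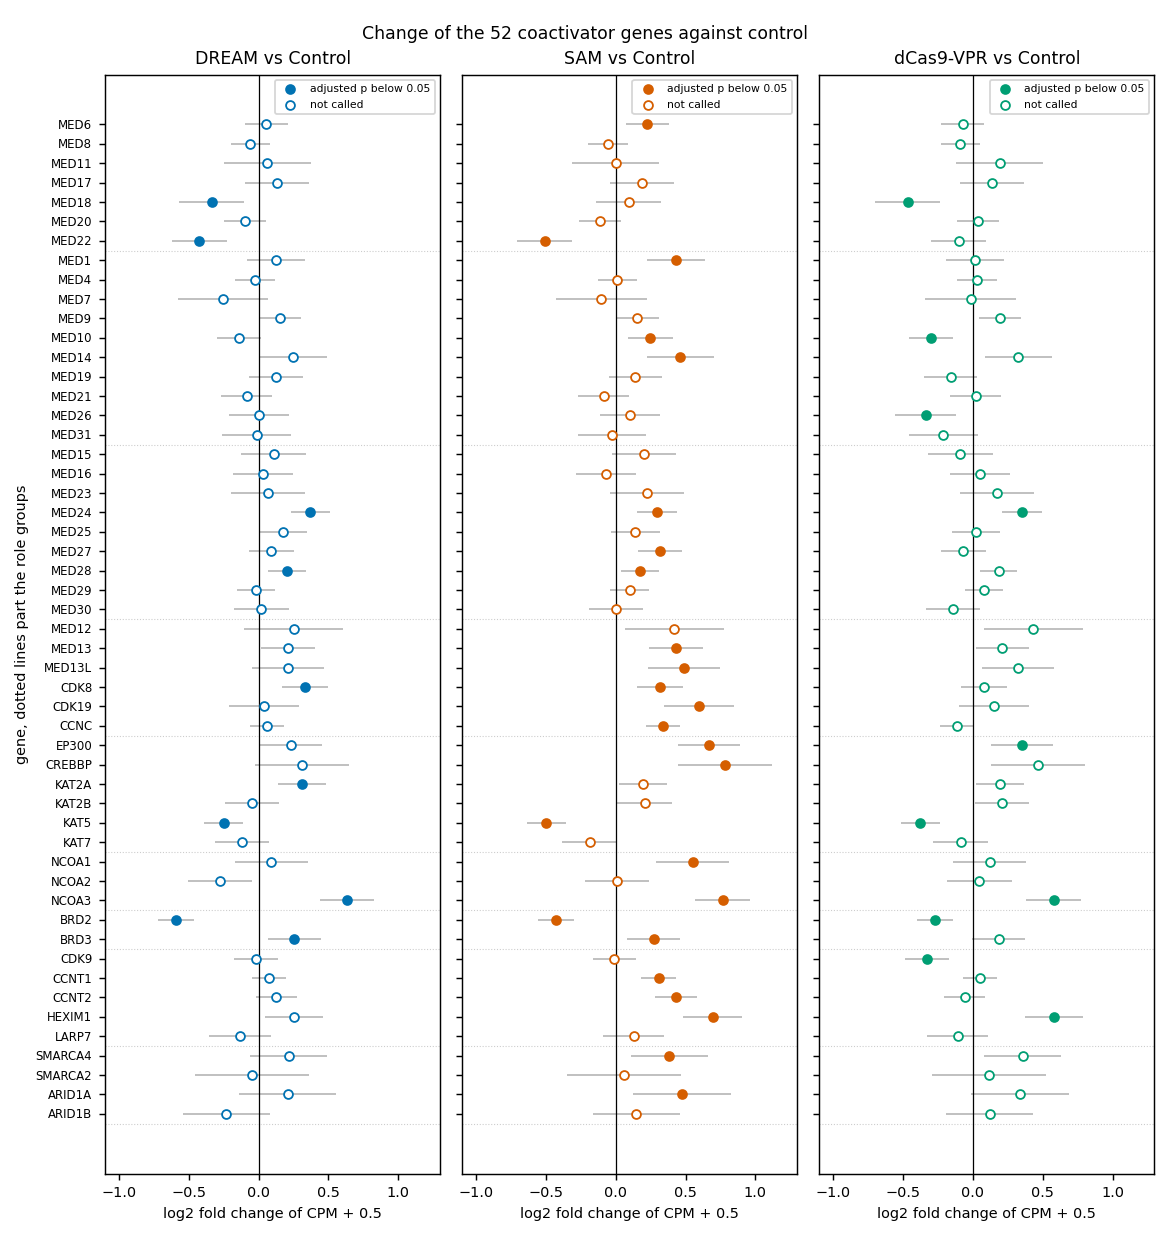
Log2 fold change (x axis, log2 of CPM + 0.5) of each of the 52 genes (y axis, grouped by role) in each activator group relative to control, with 95% confidence intervals from limma as grey bars, where filled points have an adjusted p below 0.05. Filled points number 10 with CRISPR-DREAM, 25 with SAM and 10 with dCas9-VPR, and the point farthest from 0 is CREBBP with SAM at 0.78.

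The 250 bases before the Ensembl canonical start of NCOA3, MED24, KAT5 and BRD2 are shown. These genes were chosen because each was called against control with all 3 activators, NCOA3 and MED24 as higher and KAT5 and BRD2 as lower. Since the 3 comparisons share their controls, these are not 3 independent observations. The sequences are from RefSeq on GRCh38.p14, on the strand of each gene. They span chr20:47501637-47501886 (plus strand), chr17:40054409-40054658 (minus strand), chr11:65712002-65712251 (plus strand) and chr6:32968344-32968593 (plus strand). The MED24 and KAT5 windows lie inside the genes as listed in the files, which span chr17:40019097-40061216 and chr11:65711996-65719605. Capitals mark matches on either strand to the GC box GGGCGG, the CCAAT box CCAAT, the ETS site CCGGAAG, the cyclic AMP response element TGACGTCA and the E-box CACGTG.
NCOA3: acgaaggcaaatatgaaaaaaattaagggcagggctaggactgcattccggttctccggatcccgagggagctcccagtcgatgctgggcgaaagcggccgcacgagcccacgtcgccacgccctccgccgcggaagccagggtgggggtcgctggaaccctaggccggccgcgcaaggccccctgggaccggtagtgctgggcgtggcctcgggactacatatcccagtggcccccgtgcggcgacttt
MED24: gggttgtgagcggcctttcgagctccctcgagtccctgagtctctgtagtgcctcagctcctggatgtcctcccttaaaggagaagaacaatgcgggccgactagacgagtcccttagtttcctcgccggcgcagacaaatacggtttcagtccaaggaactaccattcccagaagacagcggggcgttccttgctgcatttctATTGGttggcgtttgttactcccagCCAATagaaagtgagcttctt
KAT5: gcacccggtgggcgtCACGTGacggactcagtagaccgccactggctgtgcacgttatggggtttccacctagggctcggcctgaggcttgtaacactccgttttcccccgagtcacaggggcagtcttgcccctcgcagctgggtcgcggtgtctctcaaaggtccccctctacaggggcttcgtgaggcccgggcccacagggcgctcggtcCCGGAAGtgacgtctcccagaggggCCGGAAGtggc
BRD2: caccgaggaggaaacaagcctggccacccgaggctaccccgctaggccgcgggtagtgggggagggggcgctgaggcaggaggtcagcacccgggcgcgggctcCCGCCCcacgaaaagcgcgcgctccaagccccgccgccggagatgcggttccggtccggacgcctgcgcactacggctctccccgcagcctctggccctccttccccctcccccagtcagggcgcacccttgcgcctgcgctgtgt
The NCOA3 window held none of these 5 motifs, MED24 held 2 CCAAT boxes, KAT5 held 2 ETS sites and 1 E-box, and BRD2 held 1 GC box. BRD2 has 4 RefSeq windows, of which the one at its canonical start is shown. RefSeq windows were found for 43 of the 52 genes, 61 windows in all. Of the 61 windows of 250 bases, 36 held a GC box, beside 42.6% of all 35116 windows, 16 a CCAAT box, beside 32.0%, and 11 an ETS site, beside 8.52%. The E-box stood in 4, beside 6.34% of all windows, and the cyclic AMP response element in 2, beside 1.65%. Also searched, and not in capitals, were the TATA box TATAAA (5 windows, beside 10.7%), the heat shock element pair GAANNTTC (4, beside 5.78%), the antioxidant response element core TGACNNNGC (3, beside 10.9%), the NF-kB site (7, beside 9.96%) and the CArG box (0, beside 1.16%). NCOA3 and MED24 each held 1 NF-kB site. A match describes letters and not a bound site, and overlapping matches were counted separately.

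The p160 coactivators are scaffolds that nuclear receptors use to recruit acetyltransferases. NCOA3 was at 15.3 and 14.5 CPM in control, 24.7 and 21.98 CPM with CRISPR-DREAM, 26.6 and 24.7 CPM with SAM and 22.1 and 22.8 CPM with dCas9-VPR. Both libraries of every activator group lay above both control libraries. Its log2 change was 0.63 ± 0.0883 (adjusted p = 0.00064) with CRISPR-DREAM, 0.77 ± 0.0883 (adjusted p = 0.000152) with SAM and 0.58 ± 0.0883 (adjusted p = 0.00266) with dCas9-VPR. These 3 calls held with each library left out. In the same group, 2 of 3 genes were higher with SAM under both scalings. Beside them stood 35.7% of all genes tested on the CPM scale and 3151 of 15101 under median-of-ratios scaling. NCOA1 was at 14.8 and 14.1 CPM in control, 17.7 and 13.5 CPM with CRISPR-DREAM, 21.4 and 21.4 CPM with SAM and 16.4 and 15.2 CPM with dCas9-VPR. It was higher than control with SAM, 0.55 ± 0.118 (adjusted p = 0.00409), and its CRISPR-DREAM libraries lay on either side of control. NCOA2 was not called in any comparison with control, with changes of -0.28, 0.01 and 0.05 with CRISPR-DREAM, SAM and dCas9-VPR. Under median-of-ratios scaling its change with CRISPR-DREAM was -0.34 and was called. The exons of NCOA3 overlap those of SULF2 on the opposite strand, and the sources used here do not say whether strand was used in counting, so reads of such partners may not be separated.

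EP300 and CREBBP are related acetyltransferases that bind many activation domains. EP300 was at 22.5 and 19.9 CPM in control, 26.7 and 23.4 CPM with CRISPR-DREAM, 35.7 and 32.2 CPM with SAM and 28.4 and 25.9 CPM with dCas9-VPR. It was higher with SAM, 0.67 ± 0.0995 (adjusted p = 0.000582), and with dCas9-VPR, 0.35 ± 0.0995 (adjusted p = 0.0357), although the dCas9-VPR call was lost without control replicate 2, or dCas9-VPR replicate 1 or 2. With CRISPR-DREAM its change was 0.23 ± 0.0995 (adjusted p = 0.106), and of the 8 fits that left out a library it was called in the one without CRISPR-DREAM replicate 2. CREBBP was at 20.9 and 15.3 CPM in control, 23.3 and 21.5 CPM with CRISPR-DREAM, 34.2 and 28.3 CPM with SAM and 27.4 and 22.8 CPM with dCas9-VPR. Its rise with SAM was 0.78 ± 0.151 (adjusted p = 0.00266), and the 95% interval ran from 0.44 to 1.12. With CRISPR-DREAM and dCas9-VPR its changes were 0.31 ± 0.151 (adjusted p = 0.151) and 0.47 ± 0.151 (adjusted p = 0.0581), and of the 8 fits that left out a library each was called in the one without control replicate 1, the higher of the control libraries. Under median-of-ratios scaling the SAM changes were 0.52 for EP300 and 0.63 for CREBBP, and both were still called.

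KAT5, the catalytic subunit of the TIP60 complex, moved the other way. It was at 62.96 and 66.6 CPM in control, 53.8 and 54.9 CPM with CRISPR-DREAM, 46.2 and 45.2 CPM with SAM and 48.4 and 51.1 CPM with dCas9-VPR. All 6 activator libraries lay below both control libraries. Its change was -0.50 ± 0.0631 (adjusted p = 0.000255) with SAM, -0.38 ± 0.0631 (adjusted p = 0.00408) with dCas9-VPR and -0.25 ± 0.0631 (adjusted p = 0.0142) with CRISPR-DREAM. The dCas9-VPR call was lost without control replicate 2, or dCas9-VPR replicate 1, and the CRISPR-DREAM call without control replicate 2. KAT2A, the acetyltransferase of SAGA and ATAC, was at 26.2 and 25.1 CPM in control, 30.3 and 33.6 CPM with CRISPR-DREAM, 28.9 and 29.9 CPM with SAM and 29.4 and 29.4 CPM with dCas9-VPR. It rose with CRISPR-DREAM, 0.31 ± 0.0772 (adjusted p = 0.0135), a call lost without control replicate 2, or CRISPR-DREAM replicate 2. KAT2B and KAT7 were not called against control, although KAT7 was called lower with SAM under median-of-ratios scaling, at -0.34. KAT5 overlaps exons of RNASEH2C on the opposite strand, which was at a mean of 82.8 CPM beside 53.7 CPM for KAT5.

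BRD2 and BRD3 are BET proteins, which bind acetylated histones through paired bromodomains. BRD2 was at 200.3 and 203 CPM in control, 140.5 and 127 CPM with CRISPR-DREAM, 150.4 and 149 CPM with SAM and 163 and 172 CPM with dCas9-VPR. All 6 activator libraries lay below both control libraries. Its change was -0.59 ± 0.0585 (adjusted p = 7.99e-05) with CRISPR-DREAM, -0.43 ± 0.0585 (adjusted p = 0.000375) with SAM and -0.27 ± 0.0585 (adjusted p = 0.0128) with dCas9-VPR. The first 2 calls held with every library left out, and the dCas9-VPR call was lost without control replicate 2, or dCas9-VPR replicate 1 or 2. BRD3 was at 39.7 and 36.2 CPM in control, 48.7 and 42.2 CPM with CRISPR-DREAM, 48.01 and 43.8 CPM with SAM and 43.2 and 43.2 CPM with dCas9-VPR. It was called higher with CRISPR-DREAM, 0.26 ± 0.0856 (adjusted p = 0.0475), in 1 of the 8 fits that left out a library, the one without CRISPR-DREAM replicate 2, and with SAM, 0.27 ± 0.0856 (adjusted p = 0.0251), in 6 of them, the exceptions being those without control replicate 2, or SAM replicate 1. Neither BRD3 call held under median-of-ratios scaling, where the changes were 0.19 and 0.13. BRD3OS, on the opposite strand, overlaps BRD3 exons and was at a mean of 42.8 CPM beside 43.1 CPM for BRD3. BRD2 overlaps exons of HLA-DMA, which was at 6.18 CPM.

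**Figure D2:**
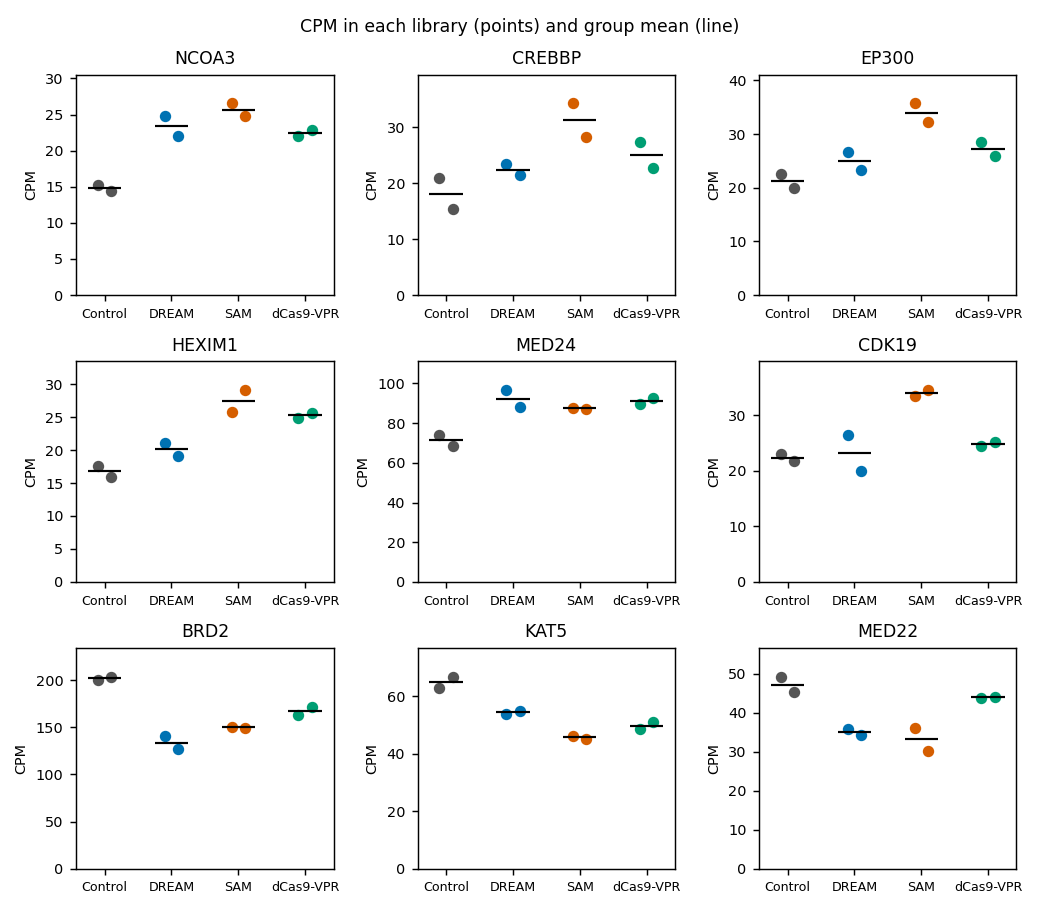
CPM (y axis, from 0) of 9 genes in each library (points) with the mean of each group of 2 libraries (line), for control, CRISPR-DREAM, SAM and dCas9-VPR (x axis). NCOA3 rises from 14.5 to 15.3 CPM in control to 21.98 CPM or more in all 6 activator libraries, and BRD2 falls from 200.3 CPM or more to 172 CPM or less.

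In the Mediator head, which contacts RNA polymerase II, 2 of 7 genes were lower with CRISPR-DREAM and none was higher. With SAM 1 was higher and 1 lower, which became 0 and 3 under median-of-ratios scaling. Of all genes tested on the CPM scale, 9.25% were lower with CRISPR-DREAM, and 35.7% were higher and 8.89% lower with SAM. Under median-of-ratios scaling, 3151 of 15101 genes were higher and 2740 lower with SAM. MED22 was at 49.2 and 45.3 CPM in control, 35.7 and 34.3 CPM with CRISPR-DREAM, 36.2 and 30.2 CPM with SAM and 43.9 and 44.1 CPM with dCas9-VPR. It was lower with CRISPR-DREAM, -0.43 ± 0.0888 (adjusted p = 0.00569), and with SAM, -0.51 ± 0.0888 (adjusted p = 0.00134), in each case with every library left out. With dCas9-VPR its change was -0.10 ± 0.0888 (adjusted p = 0.455). MED18, another head subunit, was at 8.29 and 8.15 CPM in control, 6.67 and 6.14 CPM with CRISPR-DREAM, 8.83 and 8.79 CPM with SAM and 5.75 and 5.87 CPM with dCas9-VPR. It was lower with CRISPR-DREAM, -0.34 ± 0.105 (adjusted p = 0.0361), a call that no fit leaving out a library kept, and with dCas9-VPR, -0.47 ± 0.105 (adjusted p = 0.0148), a call lost without control replicate 1 or 2, or dCas9-VPR replicate 1 or 2. With SAM its change was 0.09 ± 0.105 (adjusted p = 0.49), and under median-of-ratios scaling that value was -0.05. MED6 was called higher with SAM, 0.23 ± 0.0697 (adjusted p = 0.0232), but not without control replicate 1 or 2, or SAM replicate 1 or 2. MED8, MED11, MED17 and MED20 were not called against control, although MED8 and MED20 were called lower with SAM under median-of-ratios scaling, at -0.20 and -0.26.

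Among the middle and scaffold genes, 0 of 10 were called with CRISPR-DREAM by limma, 3 rose with SAM, of which 2 did so under median-of-ratios scaling, and 2 fell with dCas9-VPR. Of all genes tested on the CPM scale, 28% were called with CRISPR-DREAM, 35.7% rose with SAM and 6.68% fell with dCas9-VPR. Under median-of-ratios scaling, 3151 of 15101 genes rose with SAM. With CRISPR-DREAM, 17 of all 52 had an unadjusted p below 0.05 in limma. The share of all genes at that unadjusted p was not computed, here or for the later counts of this kind. Such counts therefore do not set the members apart from other genes. MED14, the backbone that joins the modules, was at 58.2 and 48.1 CPM in control, 69.8 and 56.6 CPM with CRISPR-DREAM, 75.03 and 71.4 CPM with SAM and 65.4 and 67.4 CPM with dCas9-VPR. Its SAM change was 0.46 ± 0.108 (adjusted p = 0.00666), a call lost without control replicate 2. MED1, a contact of nuclear receptors, was at 66.9 and 59.3 CPM in control, 75.7 and 62.4 CPM with CRISPR-DREAM, 85.2 and 84.9 CPM with SAM and 66.5 and 60.8 CPM with dCas9-VPR. It rose with SAM, 0.43 ± 0.0941 (adjusted p = 0.00461), with every library left out. MED10 was at 28.3 and 27.5 CPM in control, 25.4 and 25.1 CPM with CRISPR-DREAM, 32.99 and 33.4 CPM with SAM and 23.1 and 22.01 CPM with dCas9-VPR. It was higher with SAM, 0.25 ± 0.0722 (adjusted p = 0.0179), and lower with dCas9-VPR, -0.30 ± 0.0722 (adjusted p = 0.0188). The SAM call was lost without control replicate 2, or SAM replicate 1 or 2, and the dCas9-VPR call without control replicate 1 or 2, or dCas9-VPR replicate 1 or 2. MED26, which links Mediator to elongation factors, was at 16.3 and 15.04 CPM in control, 15.4 and 16.1 CPM with CRISPR-DREAM, 16.8 and 16.9 CPM with SAM and 11.5 and 13.2 CPM with dCas9-VPR. Its fall with dCas9-VPR, -0.34 ± 0.0974 (adjusted p = 0.0377), was lost without control replicate 1 or 2, or SAM replicate 1 or 2, or dCas9-VPR replicate 1 or 2. MED4, MED7, MED9, MED19, MED21 and MED31 were not called against control.

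The tail holds 2 subunits that the activation domains used here are known to contact. MED25, a contact of the VP16 domain from which VP64 derives, was at 39.9 and 36.7 CPM in control, 44.1 and 42.4 CPM with CRISPR-DREAM, 42.8 and 41.6 CPM with SAM and 41.3 and 36.5 CPM with dCas9-VPR. Its changes were 0.18 ± 0.0787 (adjusted p = 0.121), 0.14 ± 0.0787 (adjusted p = 0.17) and 0.02 ± 0.0787 (adjusted p = 0.866) with CRISPR-DREAM, SAM and dCas9-VPR. MED16, a contact of NRF2, was at 41.9 and 37.4 CPM in control, 43.5 and 37.6 CPM with CRISPR-DREAM, 39.99 and 35.6 CPM with SAM and 42.9 and 39.1 CPM with dCas9-VPR. Its changes were 0.03 ± 0.0968 (adjusted p = 0.845), -0.07 ± 0.0968 (adjusted p = 0.592) and 0.05 ± 0.0968 (adjusted p = 0.757), with 95% intervals of -0.18 to 0.24, -0.28 to 0.15 and -0.17 to 0.26. The sign for MED16 in each comparison and for MED25 with dCas9-VPR changed with the library left out, and that of MED25 with SAM and dCas9-VPR with the scaling. MED24, another tail subunit, was at 74.01 and 68.6 CPM in control, 96.6 and 88.2 CPM with CRISPR-DREAM, 87.8 and 87.1 CPM with SAM and 89.9 and 92.5 CPM with dCas9-VPR. It rose with CRISPR-DREAM, 0.37 ± 0.0642 (adjusted p = 0.00208), with SAM, 0.29 ± 0.0642 (adjusted p = 0.00446), and with dCas9-VPR, 0.35 ± 0.0642 (adjusted p = 0.00581). The dCas9-VPR call was lost without control replicate 2, or dCas9-VPR replicate 1 or 2, and the SAM call under median-of-ratios scaling, where the change was 0.15. MED27 rose with SAM, 0.32 ± 0.0724 (adjusted p = 0.00561), a call lost without SAM replicate 2. MED28 was called at 0.21 with CRISPR-DREAM, but not without control replicate 1, or CRISPR-DREAM replicate 2, or dCas9-VPR replicate 1 or 2, and at 0.17 with SAM, but not without control replicate 1, or SAM replicate 1 or 2, or dCas9-VPR replicate 1 or 2. Neither MED28 call held under median-of-ratios scaling, and of the 3 tail genes called higher with SAM 0 were called by limma under it. MED15, MED23, MED29 and MED30 were not called against control.

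In the kinase module, 5 of 6 genes rose with SAM, beside 35.7% of all genes tested on the CPM scale. Under median-of-ratios scaling 4 of them rose, beside 3151 of 15101 genes. The summed CPM of the module was 133% of the control mean, and that of all 52 genes 112%. CDK19, 1 of the 2 alternative kinases, was at 22.97 and 21.7 CPM in control, 26.4 and 20.01 CPM with CRISPR-DREAM, 33.6 and 34.5 CPM with SAM and 24.5 and 25.3 CPM with dCas9-VPR. Its SAM change was 0.60 ± 0.113 (adjusted p = 0.00208) and held with every library left out. CCNC, the cyclin of both kinases, was at 91.4 and 95.7 CPM in control, 96.3 and 98.6 CPM with CRISPR-DREAM, 115 and 122 CPM with SAM and 86.4 and 86.7 CPM with dCas9-VPR. It rose with SAM by 0.34 ± 0.0553 (adjusted p = 0.000905), with every library left out. CCNC overlaps exons of TSTD3 on the opposite strand, which was at 4.48 CPM. MED13 and MED13L, the alternative links to core Mediator, rose with SAM by 0.43 ± 0.0865 (adjusted p = 0.00299) and 0.49 ± 0.115 (adjusted p = 0.0072), and the MED13L call was lost without control replicate 2, or SAM replicate 1. CDK8 was at 32.95 and 36.7 CPM in control, 44.4 and 43.4 CPM with CRISPR-DREAM, 43.1 and 43.8 CPM with SAM and 38.03 and 35.7 CPM with dCas9-VPR. It was called with CRISPR-DREAM, 0.33 ± 0.074 (adjusted p = 0.00811), and with SAM, 0.32 ± 0.074 (adjusted p = 0.00628). Both CDK8 calls were lost without control replicate 1, and the SAM call also under median-of-ratios scaling, at 0.17. MED12, which activates the kinase, was at 24.3 and 17.6 CPM in control, 27.5 and 22.2 CPM with CRISPR-DREAM, 30.9 and 25.02 CPM with SAM and 29.3 and 27.02 CPM with dCas9-VPR. Its SAM change was 0.42 ± 0.159 (adjusted p = 0.0549), close to the threshold. With dCas9-VPR, 0 of 6 were called by limma, beside 17.6% of all genes tested. There 20 of all 52 had an unadjusted p below 0.05, a share that was not computed for all genes.

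P-TEFb pairs the kinase CDK9 with CCNT1 or CCNT2. With SAM, 3 of the 5 genes of this group rose under both scalings. Beside them stood 35.7% of all genes tested on the CPM scale and 3151 of 15101 under median-of-ratios scaling. HEXIM1, its inhibitor, was at 17.6 and 15.9 CPM in control, 21.1 and 19.1 CPM with CRISPR-DREAM, 25.8 and 29.1 CPM with SAM and 24.9 and 25.6 CPM with dCas9-VPR. It rose with SAM, 0.69 ± 0.0943 (adjusted p = 0.000364), and with dCas9-VPR, 0.58 ± 0.0943 (adjusted p = 0.00361), with every library left out. With CRISPR-DREAM its change was 0.26 ± 0.0943 (adjusted p = 0.0671), and of the 8 fits that left out a library it was called in the one without CRISPR-DREAM replicate 2. CDK9 was at 38.3 and 39.5 CPM in control, 37.9 and 38.98 CPM with CRISPR-DREAM, 37.7 and 39.6 CPM with SAM and 29.8 and 31.96 CPM with dCas9-VPR. It was lower with dCas9-VPR, -0.33 ± 0.0704 (adjusted p = 0.0118), a call lost without control replicate 2, or dCas9-VPR replicate 1 or 2, and its changes with the other 2 activators were -0.02 and -0.01. CCNT1 and CCNT2 rose with SAM, 0.31 ± 0.0557 (adjusted p = 0.00162) and 0.43 ± 0.0667 (adjusted p = 0.000696), with every library left out. CCNT2 overlaps exons of CCNT2-AS1 on the opposite strand, which was at 4.07 CPM. LARP7, which protects 7SK RNA, was not called against control.

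SWI/SNF complexes use ATP to move nucleosomes. SMARCA2, an ATPase of them, had the largest standard error of the 52 genes, 0.182. SMARCA4, the other ATPase, was at 57.1 and 43.9 CPM in control, 62.1 and 54.6 CPM with CRISPR-DREAM, 68.3 and 62.8 CPM with SAM and 69.5 and 59.4 CPM with dCas9-VPR. Its SAM change was 0.38 ± 0.123 (adjusted p = 0.0288), a call lost without control replicate 2, or SAM replicate 1 or 2, and under median-of-ratios scaling. With CRISPR-DREAM and dCas9-VPR its changes were 0.22 ± 0.123 (adjusted p = 0.217) and 0.36 ± 0.123 (adjusted p = 0.0724), and of the 8 fits that left out a library each was called in the one without control replicate 1. ARID1A, a DNA-binding subunit, rose with SAM by 0.47 ± 0.157 (adjusted p = 0.0332), a call lost without control replicate 2, or SAM replicate 1, and under median-of-ratios scaling. SMARCA2 and ARID1B were not called against control. Their summed CPM with SMARCA4 and ARID1A was 105 ± 16.6 (SD, n = 2) in control and 133 ± 13.3 with SAM.

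**Figure D3:**
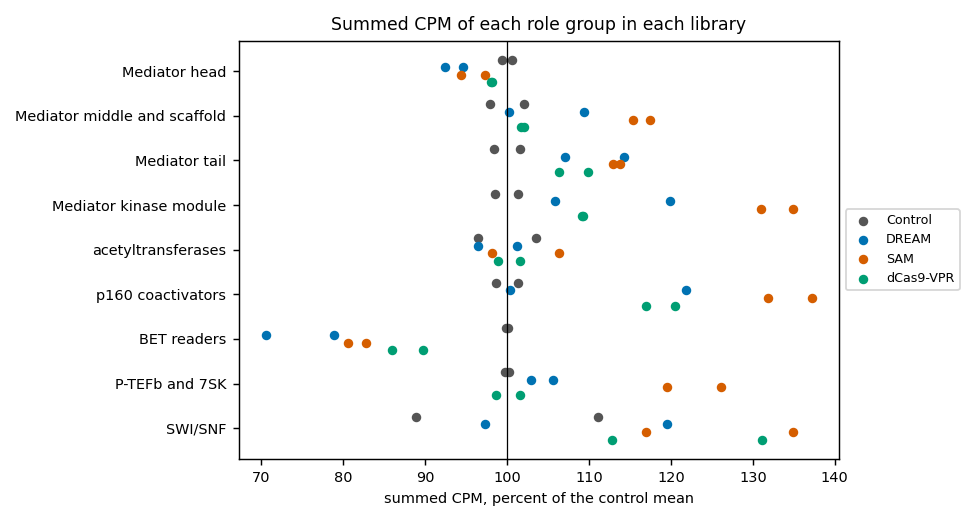
Summed CPM of each role group (y axis) in each of the 8 libraries (points, coloured by group), as a percent of the mean of the 2 control libraries (x axis, which does not start at 0). The BET readers lie lowest, at a mean of 74.8% with CRISPR-DREAM, 81.7% with SAM and 87.9% with dCas9-VPR, a sum in which BRD2 outweighs BRD3. The kinase module reaches 133% with SAM, where the sum of all 52 genes is at 112%.

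The activators were also compared with each other. Between CRISPR-DREAM and SAM, 1 coactivator gene was higher with CRISPR-DREAM and 9 were lower, 19.2% of the 52 against 10.7% of all genes tested (1.59% higher and 9.14% lower). The lower genes were CDK19 (-0.56 on the log2 scale), NCOA1 (-0.46), HEXIM1 (-0.44), EP300 (-0.43), MED18 (-0.43), MED10 (-0.39), CCNT2 (-0.30), CCNC (-0.28) and CCNT1 (-0.23), and KAT5 was higher (0.25). The count was 0 without SAM replicate 2, where 17 had an unadjusted p below 0.05 in limma, 2 without SAM replicate 1 or CRISPR-DREAM replicate 2, 6 without either dCas9-VPR library and 18 without CRISPR-DREAM replicate 1. Of all genes, 0.106% were called without SAM replicate 2, 2.7% and 3.51% without SAM replicate 1 and CRISPR-DREAM replicate 2, 6.08% to 6.16% without a dCas9-VPR library and 16.3% without CRISPR-DREAM replicate 1. Under median-of-ratios scaling the count was 1 higher and 4 lower, 9.62% of the 52 against 7.75% of all genes tested. None of these 10 calls was kept in all fits that left out a library.

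Between CRISPR-DREAM and dCas9-VPR, 2 genes were higher with CRISPR-DREAM and 3 lower, 9.62% of the 52 against 13.1% of all genes (7.9% higher and 5.21% lower). Median-of-ratios scaling gave 2 and 4. MED26 (0.34) and CDK9 (0.31) were higher, and BRD2 (-0.32), MED22 (-0.33) and HEXIM1 (-0.32) lower. This count fell to 0 without dCas9-VPR replicate 2, where 9 had an unadjusted p below 0.05 in limma, to 1 without dCas9-VPR replicate 1, to 2 without CRISPR-DREAM replicate 2 or either control library and to 3 without either SAM library. Of all genes, 2.52% and 2.61% were called without dCas9-VPR replicates 2 and 1, and 8.73% to 11% in the other fits just named. Between SAM and dCas9-VPR, 15 genes were higher with SAM and 1 was lower, 30.8% against 29.9% of all genes (23.6% higher and 6.32% lower), and median-of-ratios scaling gave 11 and 4, with 12 calls shared. The largest differences were MED18 at 0.56 ± 0.105 (adjusted p = 0.00329), MED10 at 0.55 ± 0.0722 (adjusted p = 0.000624) and CCNT2 at 0.49 ± 0.0667 (adjusted p = 0.000705), and MED22 was the gene lower with SAM at -0.41 ± 0.0888 (adjusted p = 0.00676). The count was 5 without SAM replicate 2 and 8 without either dCas9-VPR library, where 13.4% and 14.8% to 16.1% of all genes were called, while the calls of MED18, MED10, CCNT2, CCNC and MED27 held with every library left out.

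Levels between genes can be compared per length. In control, the CPM per kilobase of the Ensembl canonical transcript was highest for CCNC at 43.5 ± 1.42 (SD, n = 2), BRD2 at 40.7 ± 0.414 and MED27 at 40.1 ± 2.48, and lowest for CREBBP at 1.68, ARID1B at 1.74 and NCOA3 at 1.87. BRD2 and MED27 overlapped between libraries, and both CCNC values lay above both of BRD2. Ratios of CPM per kilobase within a library were taken for 8 paralog pairs, with no test. The BRD2 to BRD3 ratio was 6.09 ± 0.458 (SD, n = 2) in control, 3.37 ± 0.102 with CRISPR-DREAM, 3.73 ± 0.22 with SAM and 4.43 ± 0.164 with dCas9-VPR. The ARID1A to ARID1B ratio was 1.62 ± 0.145 in control and 2.22 ± 0.224, 2.04 ± 0.0759 and 1.89 ± 0.141 with the same 3 activators. EP300 exceeded CREBBP by a ratio of 1.46 ± 0.196 in control and 1.34 to 1.37 with the activators. CDK8 to CDK19 was 3.26 ± 0.378 in control, 4.02 ± 0.717 with CRISPR-DREAM, 2.66 ± 0.0276 with SAM and 3.10 ± 0.211 with dCas9-VPR. SMARCA4 to SMARCA2 was 4.12 ± 0.162 in control and 4.88 to 5.19 with the activators, KAT2A to KAT2B 1.65 in control and 2.13 ± 0.372 with CRISPR-DREAM, and MED13 to MED13L and CCNT1 to CCNT2 stayed within 2.25 to 2.65 in all groups.

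Changes went with transcript length. Over the 52 genes, Spearman's rho between canonical transcript length and log2 change was 0.36 with CRISPR-DREAM, 0.51 with SAM and 0.59 with dCas9-VPR, given as a description across genes that share libraries. For 13980 genes with a length, the values were 0.061, 0.17 and 0.23. For the 9755 of them in the members' range of mean CPM, they were 0.099, 0.23 and 0.29. In 4 bins of 13 genes by length, the median SAM change was 0.094 for transcripts of 836 to 2209 bases, 0.10, 0.27, and 0.46 for those of 7381 to 10858 bases. Length also went with the difference between replicates 1 and 2 of one group, with rho of 0.58 in control, 0.59 with CRISPR-DREAM, 0.48 with SAM and 0.27 with dCas9-VPR. Over the 13980 genes, these values were 0.33, 0.45, 0.22 and 0.15 in the same order. The long genes CREBBP, EP300, NCOA3, MED13, MED14 and ARID1A are among those higher with SAM. In the same bin of longest transcripts, NCOA2, KAT7 and ARID1B, of 8430, 9514 and 10310 bases, were not called with SAM. The part of length in these changes was not tested. With the length trend removed in each library, a setting chosen after the data were seen, 24 of the 25 SAM calls, 9 of 10 CRISPR-DREAM calls and 9 of 10 dCas9-VPR calls were kept in the same direction. That trend was fitted over all genes with a length, where length went less with change than in the 52. The setting may therefore leave much of the members' own relation in place and cannot decide the part of length.

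**Figure D4:**
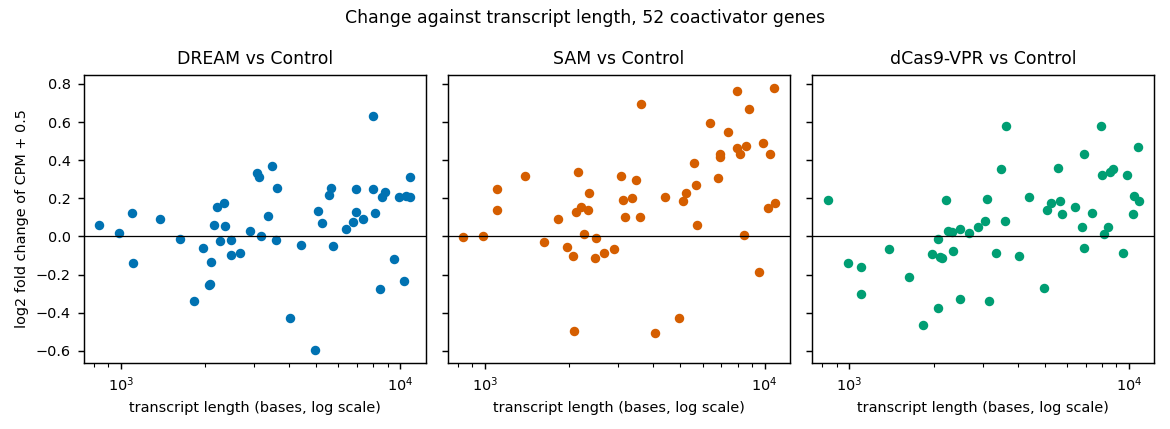
Log2 fold change relative to control (y axis, log2 of CPM + 0.5) of the 52 genes (points) against canonical transcript length in bases (x axis, log scale), in 3 panels for CRISPR-DREAM, SAM and dCas9-VPR. Longer transcripts lie higher in the SAM panel, with a Spearman's rho of 0.51, and in the dCas9-VPR panel, with 0.59.

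Other genes of the transcription machinery were read from 6 wider lists of 152 genes, of which 150 were tested. With CRISPR-DREAM 23 rose and 7 fell, with SAM 60 rose and 5 fell, and with dCas9-VPR 11 rose and 7 fell. The count of these calls also made in the same direction under median-of-ratios scaling was 12 and 7, 23 and 5, and 7 and 7 in the same order. Their shares called were 20%, 43.3% and 12%, below the 28%, 44.6% and 17.6% of all genes. The median log2 changes were 0.094, 0.18 and 0.031. With SAM, 12 of 31 genes of SAGA, ATAC and TIP60 rose and 1 fell, 12 of 26 elongation factors rose and 2 fell, and 11 of 23 other SWI/SNF genes rose and 1 fell. Of RNA polymerase II and the general factors 17 of 45 rose and 1 fell, of other acetyltransferase complexes and readers 5 of 15 rose, and of other nuclear receptor coactivators 3 of 10 rose. With CRISPR-DREAM the rises and falls in the same lists were 6 and 2, 3 and 2, 8 and 0, 4 and 2, 1 and 0, and 1 and 1, and with dCas9-VPR 0 and 2, 2 and 0, 4 and 0, 4 and 4, 0 and 1, and 1 and 0.

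By the largest called changes in these lists, ATXN7L3, which supports the SAGA deubiquitinase, rose by 0.56 ± 0.0524 (adjusted p = 5.51e-05) with CRISPR-DREAM and 0.61 ± 0.0524 (adjusted p = 3.32e-05) with SAM. Among SWI/SNF genes, SMARCD3 rose with CRISPR-DREAM by 0.67 ± 0.0629 (adjusted p = 6.11e-05) and SMARCD2 by 0.50 ± 0.0511 (adjusted p = 9.66e-05). The rise of SMARCD2 was not particular to CRISPR-DREAM. SMARCD2 was at 149 and 141 CPM in control, 208 and 204 CPM with CRISPR-DREAM, 201 and 202 CPM with SAM and 165 and 157 CPM with dCas9-VPR. SMARCD3 was also higher than with SAM, by 0.60 ± 0.0629 (adjusted p = 0.00211). POLR2A, the largest subunit of RNA polymerase II, was at 74.4 and 52.8 CPM in control, 95.4 and 83.4 CPM with CRISPR-DREAM, 129.97 and 125 CPM with SAM and 105 and 91.4 CPM with dCas9-VPR. It rose by 1.02 ± 0.139 (adjusted p = 0.000477) with SAM, and BRPF3, a partner of KAT7, by 1.10 ± 0.125 (adjusted p = 0.000166). These were the 2 of the 150 genes past a fold change of 2 with SAM, and under median-of-ratios scaling they were at 0.87 and 0.96. BRPF3 was at 20.5 and 18.2 CPM in control, 35.5 and 26.1 CPM with CRISPR-DREAM, 41.6 and 42.8 CPM with SAM and 25.2 and 24.4 CPM with dCas9-VPR. For both genes, every activator library lay above both control libraries, so the rises were not particular to SAM. HEXIM2, the paralog of HEXIM1, rose by 0.88 ± 0.111 (adjusted p = 0.000255) with SAM. It was at 11.3 and 10.5 CPM in control, 13.5 and 14.5 CPM with CRISPR-DREAM, 18.5 and 22.5 CPM with SAM and 9.67 and 9.18 CPM with dCas9-VPR. PPARGC1A, a coactivator of nuclear receptors, changed by -0.82 ± 0.174 (adjusted p = 0.00631) with CRISPR-DREAM. It lay close to the filter of 1 CPM, at 3.45 and 3.20 CPM in control and 2.06 and 1.33 CPM with CRISPR-DREAM. MLLT3, an elongation complex subunit, changed by -0.56 ± 0.103 (adjusted p = 0.00277) with CRISPR-DREAM. The calls named here held with every library left out.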

How the data were processed

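RNA-seq libraries of HEK293T cells (4 groups of 2) were sequenced by the authors as paired 75-base reads from a total RNA kit, whereas the labels give polyA RNA. Per the submitters' processing notes and the methods, reads were aligned with STAR 2.7.3a to hg38 and quantified by a Bayesian approach. The authors deposited CPM values with 0.0001 added to each. They ran DESeq2 3.5 on counts, which were not used here. Between 63.9% and 67.4% of low values were whole multiples of 1 read (tolerance 0.05), so reads were not recovered. At the estimated depth, 3 reads are 0.0853 to 0.105 CPM.

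Here limma 3.58.1 in R 4.3.3 (trend, robust) was fitted to log2(CPM + 0.5), a scale that understates changes of low genes, with 1 coefficient per group and 4 residual degrees of freedom. The fit was tested on simulated data. Some marker genes are not reported here. Members and gene lists were chosen with earlier results of these data known. Genes given in detail were the 4 largest called rises and falls per comparison with control, EP300, CREBBP, SMARCA4, MED16, MED25 and the paralog pairs. Other called members were named after their values were seen. Wider lists are given by counts and up to 3 of their largest called changes. Transcript lengths came from Gencode 44 on hg38, read with Python 3.11.15 and pandas 2.3.3. Alternatives were other pseudocounts (0.1, 1), no filter, a filter at 10 CPM, median-of-ratios scaling, a fit of the 4 libraries compared, a replicate block, limma without trend and robust, and each library left out.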

Additional observations from a re-analysis of the deposited data

How the results depend on the processing

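The count of genes past a fold change of 2 was 0 in each comparison under every alternative. With each library left out in turn, the count of called coactivator genes ranged from 6 to 13 for CRISPR-DREAM against control, 18 to 29 for SAM, 2 to 14 for dCas9-VPR, 0 to 18 for CRISPR-DREAM against SAM, 0 to 7 for CRISPR-DREAM against dCas9-VPR and 5 to 19 for SAM against dCas9-VPR. A group that lost a library kept 1, which is assumed to vary like the others. Where shares of all genes called are given above for such fits, they moved as well. For SAM against control no such share is given. These ranges therefore do not describe the members alone. In a fit of the 4 libraries compared, the counts were 6 for CRISPR-DREAM against control, 0 against SAM (19 at an unadjusted p below 0.05 in limma) and 2 against dCas9-VPR, while they were 26 for SAM and 14 for dCas9-VPR against control and 21 for SAM against dCas9-VPR. Limma without trend and robust gave 6 for CRISPR-DREAM against SAM and 2 against dCas9-VPR. For CRISPR-DREAM against SAM, median-of-ratios scaling gave 5, which is 9.62% of the 52 against 7.75% of all genes tested. For CRISPR-DREAM against dCas9-VPR, no filter gave 3, which is 5.77% of the 52 against 9.07% of all genes tested. Removal of the length trend gave 8. For the fits of 4 libraries, limma without trend and robust, and the length trend, shares of all genes are not given. Their counts therefore do not set the members apart from other genes. The cause of these shifts was not tested.

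Differences between replicates 1 and 2 correlated between groups at 0.133 to 0.326, but the labels do not say what the number marks, so the pairing was not established. With the replicate block, the counts were 22, 33 and 24 for CRISPR-DREAM, SAM and dCas9-VPR against control, 25 and 14 for CRISPR-DREAM against SAM and dCas9-VPR, and 23 for SAM against dCas9-VPR. The shares of all genes called were 44.7%, 58.1%, 37.5%, 30.5%, 29.7% and 45.6% in the same order. With the block, EP300 (adjusted p = 0.00747), HEXIM1 (0.0134), CREBBP (0.00203), SMARCA4 (0.00373) and MED25 (0.0204) were called with CRISPR-DREAM, MED25 (0.0494) and MED12 (6.14e-05) with SAM, and CREBBP (4.68e-05) and SMARCA4 (3.62e-05) with dCas9-VPR.

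Under median-of-ratios scaling, 90 member changes were followed, namely those called and those of selected genes against control. Of these, 5 turned sign, all uncalled. They went to -0.031 for MED16 with CRISPR-DREAM, -0.0082 for MED16 and -0.034 for MED25 with dCas9-VPR, and -0.047 for MED18 and -0.0068 for MED25 with SAM. Other uncalled changes are not in this count. The median SAM change of the 10 middle and scaffold genes went from 0.12 to -0.024. With libraries left out, MED16 ranged from -0.075 to 0.14 with CRISPR-DREAM, -0.15 to 0.014 with SAM and -0.032 to 0.13 with dCas9-VPR, and MED25 from -0.065 to 0.11 with dCas9-VPR. The smallest called change of a member was 0.21 with CRISPR-DREAM, 0.17 with SAM and 0.27 with dCas9-VPR, and 2 libraries per group limit what could be called.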

Other observations

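The RNA that holds P-TEFb inactive with HEXIM1 and LARP7 is listed under 2 names at nearly the same place on chromosome 6, which were looked at after the values of HEXIM1 were seen. RN7SK was at 13.7 and 16.9 CPM in control, 16.7 and 19.9 CPM with CRISPR-DREAM, 19.4 and 8.82 CPM with SAM and 17.9 and 10.1 CPM with dCas9-VPR. The replicates of SAM and of dCas9-VPR lay on either side of control, so no direction is given. The second listing, 7SK, was at 11.5 and 10.8 CPM in control and its SAM libraries were at 12.5 and 5.65 CPM. Because the listings overlap, each value is uncertain.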
